A study of Rattus norvegicus with 12 samples.

Results

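The FOS family of transcription factors has 4 members, Fos, Fosb, Fosl1 (also called Fra-1) and Fosl2 (also called Fra-2). All probe sets of the array whose single annotated gene symbol was one of these names were taken, which gave 4 of the 10411 genes so annotated and 5 of the 15923 probe sets: 1375043_at and 1371283_at for Fos, 1373759_at for Fosb, 1368489_at for Fosl1 and 1387530_a_at for Fosl2. None of the measured values entered this choice.

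FOS proteins are basic leucine zipper factors that cannot bind DNA stably alone and pair with a JUN protein to form the activator protein 1 (AP-1) complex. In neurons, membrane depolarization opens voltage-gated calcium channels, and calcium signalling to serum response factor and CREB at the Fos promoter switches the gene on without new protein synthesis, which is why Fos is called an immediate-early gene and serves as a marker of recent neuronal activity. Fos mRNA and protein are short-lived, whereas a splice form of Fosb, known as delta FosB, gives a stable protein that accumulates after repeated stimulation.

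The samples were primary cultures of ventral midbrain from CD1 rat embryos of day 12, described by the submitters as enriched in dopaminergic neurons, and 1 single-colour Affymetrix array was run per sample. The 4 groups held 3 arrays each: depolarized cultures collected at 2 h (replicates 4 to 6), control cultures collected at 2 h (replicates 4 to 6), depolarized cultures collected at 30 min (replicates 1 to 3) and control cultures collected at 30 min (replicates 1 to 3). All cultures, controls included, had 20 ng/ml of basic fibroblast growth factor and 50 ng/ml of Sonic hedgehog in the medium for 6 days and then spent 3 days without these factors. On day 9 the depolarized cultures received 56 mM KCl for 2 h and the controls received control medium, after which the medium was changed and the collection time counted from there. No sample was taken during the exposure to KCl, so both collection times follow it. Embryos from 4 pregnant rats were combined into 3 sets before plating, and RNA from duplicate cultures was pooled, so SD, SE and p-values describe the spread between pooled cultures and not between animals. No transgene, deletion or strain contrast was part of the design.

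Levels are log2 RMA values, differences are depolarized minus control on the log2 scale, SE is the standard error from a limma fit over all 12 arrays, and p-values were adjusted by the Benjamini-Hochberg method over 15866 probe sets. A probe set passed at an adjusted p under 0.05. The number of arrays limits the precision, the table has no detection calls, and levels of different probe sets are not compared. Array medians lay between 8.33 and 8.43, and arrays of the same group correlated at 0.9957 to 0.9979 across probe sets. The cultures of the 2 collection times also differed without KCl, since 35.3% of probe sets passed between control arrays at 2 h and control arrays at 30 min, and the labels do not say whether both times came from the same preparation. All 9 measured neuronal markers were higher in controls at 2 h than in controls at 30 min (mean list level 11.34 to 11.41 against 10.30 to 10.51 per array), as were 6 of 10 markers of dopaminergic neurons, while 4 of 5 markers of the oligodendrocyte lineage were lower.

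Depolarization raised 4 of the 5 FOS family probe sets at each collection time and lowered none. Across the array, 9.51% of probe sets were higher and 15.7% were lower in depolarized cultures at 2 h, and 10.8% were higher and 13.1% were lower at 30 min. The balance of these directions depends on the scaling: after centring each array on its median, 2014 probe sets were higher and 1903 lower at 2 h, against 1509 and 2492 as deposited, and 2339 were higher and 1631 lower at 30 min, against 1720 and 2085. Median centring changed no call of the 5 FOS family probe sets. Every depolarized array was above every control array for 4 of the 5 probe sets at 2 h, as for 15.4% of all probe sets, and for 5 of the 5 at 30 min, as for 17.9% of all probe sets. The median difference over the 5 probe sets was 1.54 at 2 h and 0.65 at 30 min, against -0.0007 and 0.01 over all probe sets. In bulk RNA of a mixed culture, a change in the share of responding cells and a change in RNA per cell cannot be told apart.

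**Figure D1:**
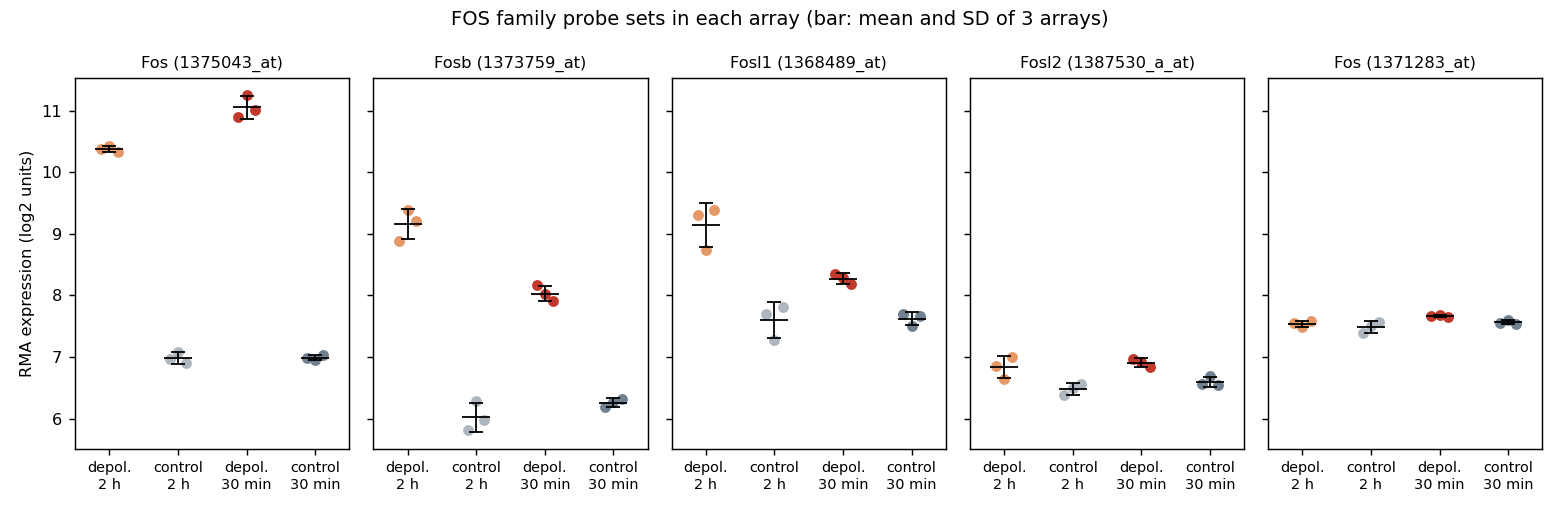
Log2 RMA expression (y axis) of the 5 FOS family probe sets in each of the 12 arrays, with a panel per probe set and the groups along the x axis (depolarized and control at 2 h, then depolarized and control at 30 min). Points are single arrays and bars are the mean and SD of 3 arrays; Fos 1375043_at reached 10.37 at 2 h and 11.05 at 30 min in depolarized cultures, whereas Fosb and Fosl1 were highest in the depolarized arrays at 2 h.

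Fos, the founding member of the family, had the largest rise of all 15866 probe sets at both times, measured by 1375043_at. At 2 h its level was 10.37, 10.42 and 10.33 in the depolarized arrays, against 6.97, 7.08 and 6.90 in the control arrays. The depolarized arrays at 30 min read 10.89, 11.25 and 11.01, against 6.98, 6.95 and 7.04 in the control arrays. The groups were far apart at both times, with the lowest depolarized array 3.25 above the highest control array at 2 h and 3.85 above it at 30 min. The difference was 3.39 at 2 h (SE 0.08, adjusted p = 3.32e-13 by limma), which is 10.5-fold with a 95% confidence interval of 9.30 to 11.8. The 30 min difference was 4.06 (SE 0.08, adjusted p = 2.02e-14 by limma), which is 16.7-fold with an interval of 14.8 to 18.8. Fos mRNA therefore remained high 2 h after the end of the KCl exposure, at 62.5% of the 30 min level on the linear scale. All 3 depolarized arrays at 2 h lay below all 3 at 30 min, and this fall of 0.68 passed (SE 0.08, adjusted p = 7.54e-06 by limma).

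The 2 probe sets annotated to Fos did not give the same result. By 1371283_at, levels at 2 h were 7.55, 7.48 and 7.58 in depolarized arrays, against 7.38, 7.51 and 7.56 in control arrays, and the groups overlapped. At 30 min they were 7.66, 7.69 and 7.64 in depolarized arrays, against 7.56, 7.60 and 7.53 in control arrays. The 30 min groups did not overlap, but the nearest arrays were 0.04 apart and neither difference passed: 0.05 at 2 h (95% interval -0.08 to 0.18, adjusted p = 0.61 by limma) and 0.10 at 30 min (interval -0.03 to 0.23, adjusted p = 0.291 by limma). These intervals lie far below the difference seen with 1375043_at. Where the probes of each set lie on the Fos transcript is not given in the sources used here, and the cause of the disagreement was not tested.

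Fosb, the member that gives the stable splice form delta FosB, had its larger response at 2 h. At 2 h the depolarized arrays read 8.89, 9.38 and 9.21, against 5.81, 6.28 and 5.97 in the control arrays. At 30 min the depolarized arrays read 8.16, 8.02 and 7.91, against 6.19, 6.27 and 6.32 in the control arrays. No depolarized array overlapped a control array at either time, and every depolarized array at 2 h was above every depolarized array at 30 min. The rise was 3.14 at 2 h (SE 0.12, adjusted p = 7.6e-11 by limma), or 8.82-fold with an interval of 7.38 to 10.5, the third largest difference of the array. The 30 min rise was 1.77 (SE 0.12, adjusted p = 3.46e-08 by limma), or 3.41-fold with an interval of 2.85 to 4.07, and ranked 24th. The depolarized level at 2 h was 2.19-fold that at 30 min (difference 1.13, SE 0.12, adjusted p = 2.19e-06 by limma). The annotation does not say which Fosb splice forms the probe set detects, so delta FosB was not measured separately.

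Fosl1 encodes a FOS protein without the C-terminal activation region of FOS and FOSB, and in other cell types its transcription is known to be raised by AP-1 itself. Its level at 2 h was 9.30, 8.73 and 9.39 in depolarized arrays, against 7.70, 7.27 and 7.82 in control arrays. In the 30 min arrays it was 8.35, 8.28 and 8.18 after depolarization, against 7.69, 7.50 and 7.66 in control arrays. Depolarized and control arrays stayed apart at both times, though replicate 5 at 2 h read lowest in both conditions. The rise was 1.54 at 2 h (SE 0.15, adjusted p = 4.35e-06 by limma), or 2.92-fold with an interval of 2.34 to 3.64. The 30 min rise was 0.65 (SE 0.15, adjusted p = 0.00393 by limma), or 1.57-fold with an interval of 1.26 to 1.96. The depolarized level at 2 h was 1.83-fold that at 30 min (difference 0.87, SE 0.15, adjusted p = 0.000242 by limma).

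Fosl2 encodes a protein close to FOSL1 that likewise lacks the strong C-terminal activation region. Its level at 2 h was 6.86, 6.64 and 7.00 in depolarized arrays, against 6.38, 6.50 and 6.56 in control arrays. Depolarized arrays at 30 min read 6.97, 6.92 and 6.83, against 6.56, 6.69 and 6.54 in control arrays. Within each time the groups did not overlap, but the nearest arrays were only 0.09 apart at 2 h and 0.14 apart at 30 min. The rise was 0.35 at 2 h (SE 0.08, adjusted p = 0.00575 by limma), or 1.28-fold with an interval of 1.13 to 1.45, and 0.31 at 30 min (SE 0.08, adjusted p = 0.0121 by limma), or 1.24-fold with an interval of 1.10 to 1.41. The 30 min call rests on 1 array: without replicate 3 of the 30 min controls the difference was 0.28 and the adjusted p 0.053.

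The array tables hold no sequence, so the genomic context of the members is shown from RefSeq promoters of the rat build GRCr8, which held 3 of the 4 genes (Fosb, Fosl1 and Fosl2). The 250 bases before the annotated start are printed for Fosl1 and Fosl2, the members with larger and smaller late responses whose windows lie outside the annotated gene. The Fosb window lies inside the annotated span of its own gene and is not printed. Each sequence runs 5′ to 3′ on the strand of the gene, and capitals mark CGTCA, which is TGACG read on the other strand.
Fosl1, chr1:212183635-212183884, plus strand: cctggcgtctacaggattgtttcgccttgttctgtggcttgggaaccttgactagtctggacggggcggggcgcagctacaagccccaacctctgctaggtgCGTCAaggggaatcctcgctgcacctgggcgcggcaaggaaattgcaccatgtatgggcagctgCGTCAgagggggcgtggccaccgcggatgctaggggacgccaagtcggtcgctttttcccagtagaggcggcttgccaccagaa
Fosl2, chr6:30039270-30039519, minus strand: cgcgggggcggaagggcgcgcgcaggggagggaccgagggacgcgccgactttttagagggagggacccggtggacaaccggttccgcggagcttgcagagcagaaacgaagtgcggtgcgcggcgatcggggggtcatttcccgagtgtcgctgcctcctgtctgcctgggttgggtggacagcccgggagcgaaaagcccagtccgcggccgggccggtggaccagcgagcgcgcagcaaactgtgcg

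Both strands of these windows were searched for 4 motifs: the AP-1 site TGANTCA, the cyclic AMP response element TGACGTCA, its part TGACG (which any TGACGTCA also contains), and the serum response element. The Fosl1 window held TGACG at 2 places, beginning 148 and 84 bases before the start, and none of the other 3 motifs. The Fosl2 and Fosb windows held none of the 4. Of the 33469 rat promoter windows of this length, 18.2% held TGACG, 6.34% TGANTCA, 1.59% TGACGTCA and 1.5% the serum response element. A match describes letters and is not evidence of binding, and the absence of a match says only that these letters are not in this window.

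**Figure D2:**
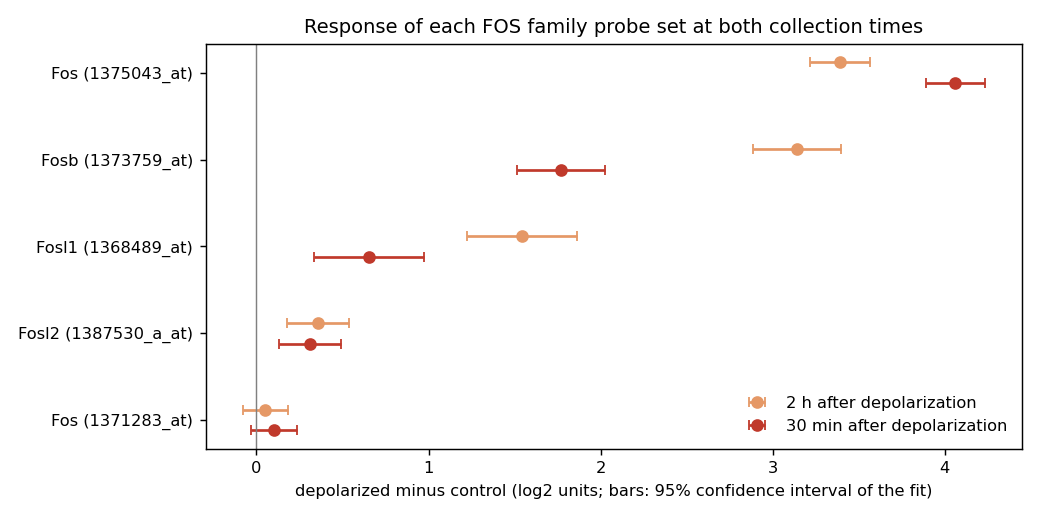
Depolarized minus control difference (x axis, log2 units) of each FOS family probe set (y axis) at 2 h and at 30 min, with bars for the 95% confidence interval of the fit. Fos 1375043_at lay at 3.39 at 2 h and 4.06 at 30 min, Fosb at 3.14 and 1.77, Fosl1 at 1.54 and 0.65, and the Fosl2 intervals at both times overlapped.

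The response itself was compared between collection times by the interaction term of the fit, where 6.16% of all probe sets were higher and 6.79% were lower at 2 h. Of the 5 FOS family probe sets, 2 had a larger response at 2 h, 1 had a smaller one and 2 did not pass. The response of Fosb was larger at 2 h by 1.37 (SE 0.17, 95% interval 1.01 to 1.73, adjusted p = 6.72e-05 by limma). That of Fosl1 was larger by 0.89 (SE 0.21, interval 0.44 to 1.34, adjusted p = 0.0103 by limma). For Fos 1375043_at the difference was -0.67 (SE 0.12, interval -0.92 to -0.43, adjusted p = 0.00104 by limma), so its response fell to 83.5% of the 30 min response on the log2 scale. For Fosl2 the difference was 0.04 (interval -0.21 to 0.30, adjusted p = 0.888 by limma), and for Fos 1371283_at it was -0.05 (adjusted p = 0.804 by limma). The difference in neuronal marker levels between the collection times stands beside these values, and its part in them was not tested.

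Levels were also compared between the collection times within each condition. Between controls at 2 h and controls at 30 min, 0 of the 5 probe sets passed in the limma fit, beside the 35.3% over the whole array, and 0 had an unadjusted p under 0.05. The control difference was -0.01 for Fos 1375043_at (95% interval -0.18 to 0.17), -0.02 for Fosl1 (-0.34 to 0.30), -0.12 for Fosl2 (-0.30 to 0.06) and -0.24 for Fosb (-0.50 to 0.02, adjusted p = 0.137 by limma). Between depolarized cultures at 2 h and at 30 min, 2 probe sets were higher (Fosb and Fosl1), 1 was lower (Fos 1375043_at) and 2 did not pass, beside 19.2% higher and 21.8% lower over the array. For Fosl2 the depolarized difference was -0.07 (interval -0.25 to 0.11).

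Ordered by level, the 4 groups did not rank alike for all members. For Fos 1375043_at the depolarized arrays at 30 min were highest and those at 2 h next, each clear of its neighbour, and the 2 control groups overlapped. For Fosb and Fosl1 the depolarized arrays at 2 h were highest, those at 30 min next without overlap, and the control groups again overlapped. For Fosl2 the depolarized groups had the higher means, but every neighbouring pair of groups in the order overlapped.

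Within the depolarized group at 2 h the members did not all vary alike. Relative to the mean control at 2 h, replicate 5 had the smallest Fosl1 response, 1.13 against 1.70 and 1.80 in replicates 4 and 6. It also had the smallest Fosl2 response, 0.16 against 0.38 and 0.52. For Fosb it had the largest response, 3.36 against 2.87 and 3.19, and its Fos response of 3.44 was within 0.1 of the 3.39 and 3.34 of the others. Subtracting a mean control ranks the depolarized arrays only. Control replicate 5 at 2 h was itself lowest for Fosl1 (7.27 against 7.70 and 7.82). It was highest for Fosb (6.28 against 5.81 and 5.97) and for Fos (7.08 against 6.97 and 6.90), and in the middle for Fosl2. Responses against same-numbered controls can therefore rank otherwise. Without replicate 5 of the depolarized group at 2 h the Fosl1 difference at 2 h was 1.75 (adjusted p = 1.37e-07 by limma) and the Fosl2 difference 0.45 (adjusted p = 0.000866 by limma). A low reading of this array was not particular to these members. It was also the lowest of its group for Egr1 (10.47 against 11.53 and 11.29) and Tnfrsf12a (9.76 against 10.70 and 10.33). For Hmox1 it was not the lowest (10.96 against 10.93 and 11.32).

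JUN proteins and other bZIP factors pair with FOS proteins or compete with them for the same sites. Of 17 genes listed as AP-1 partners or related factors, 11 were measured, and each is given at its brightest probe set. At 2 h, 6 were higher and 0 lower (median 0.28), and at 30 min 7 were higher and 1 lower (median 0.67), beside 9.51% higher and 15.7% lower over the array at 2 h and 10.8% higher and 13.1% lower at 30 min. The response of 5 of the 11 was smaller at 2 h than at 30 min, and that of 2 was larger. Over the array, 6.79% of probe sets were lower and 6.16% higher in this comparison.

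Junb, a partner that is itself an immediate-early gene, read 8.92, 8.19 and 8.64 in depolarized arrays at 2 h, against 7.67, 7.51 and 7.49 in controls. Its 30 min values were 10.48, 10.28 and 9.93 in depolarized arrays, against 7.69, 7.69 and 7.90 in controls. Depolarized arrays were above controls at both times, by 1.03 at 2 h (SE 0.15, adjusted p = 0.000154 by limma) and by 2.47 at 30 min (SE 0.15, adjusted p = 1.2e-08 by limma). Atf3, a stress-induced bZIP factor that dimerizes with JUN proteins, read 7.87, 7.34 and 8.03 in depolarized arrays at 2 h, against 6.73, 6.66 and 6.74 in controls. Its 30 min values were 9.61, 9.87 and 9.30 in depolarized arrays, against 6.63, 6.64 and 6.76 in controls. Its difference was 1.04 at 2 h (adjusted p = 9.69e-05 by limma) and 2.91 at 30 min (adjusted p = 1.59e-09 by limma). The response was smaller at 2 h for both genes, with a difference of -1.45 for Junb (adjusted p = 0.000288 by limma) and -1.88 for Atf3 (adjusted p = 2.27e-05 by limma).

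Jun, the main partner of FOS, read 9.91, 9.63 and 9.94 in depolarized arrays at 2 h, against 9.71, 9.69 and 9.67 in controls, and these groups overlapped. At 30 min it read 10.87, 11.10 and 11.02 in depolarized arrays, against 9.91, 9.83 and 9.86 in controls, with no overlap. The difference was 0.14 at 2 h, which did not pass (adjusted p = 0.251 by limma), and 1.13 at 30 min (adjusted p = 6.49e-08 by limma). The other Jun probe sets passed at both times, with 0.37 and 0.45 at 2 h and 1.75 and 1.55 at 30 min. Jund, the JUN member known for steady expression, had a difference of 0.30 at 2 h (adjusted p = 0.117 by limma) and of 0.39 at 30 min (adjusted p = 0.0458 by limma). The arrays overlapped at 30 min and were apart at 2 h. Its level was not steady between the times. The difference was -0.83 in controls (adjusted p = 0.00016 by limma) and -0.92 in depolarized arrays (adjusted p = 5.06e-05 by limma). Its dimmer probe set did not pass at either time.

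Among the small MAF proteins, which pair with FOS and NRF2 in other cells, Mafk was higher by 0.72 at 2 h and 1.10 at 30 min. Mafg had 0.19 at 2 h (adjusted p = 0.104 by limma) and rose by 0.87 at 30 min on its brightest probe set, while a dimmer one passed at both times, with 0.37 at 2 h (adjusted p = 0.0108 by limma) and 1.11 at 30 min. Nfe2l2, which encodes NRF2, rose by 0.71 at 2 h (adjusted p = 0.000124 by limma) and had 0.14 at 30 min (adjusted p = 0.415 by limma). The larger responses at 2 h were those of Nfe2l2 and Jdp2. For Nfe2l2 the controls differed by -0.38 between the times (adjusted p = 0.00849 by limma). Its depolarized level differed by 0.19, which did not pass (adjusted p = 0.143 by limma). Jdp2, a repressor that binds AP-1 sites and is named here after its values were seen, was higher by 0.21 at 2 h (adjusted p = 0.045 by limma) and lower at 30 min, where the difference was -0.44 (adjusted p = 0.000245 by limma).

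The genes of factors that switch Fos on had differences under 1 log2 unit in either direction. Of 26 genes listed as regulators of Fos transcription, 19 were measured. At 2 h, 7 were higher and 4 lower (median -0.02), beside 9.51% higher and 15.7% lower over the array. At 30 min 7 were higher and 1 lower (median 0.11), beside 10.8% and 13.1%. Srf, which encodes serum response factor, was higher by 0.64 at 2 h (adjusted p = 1.23e-05 by limma) and by 0.79 at 30 min (adjusted p = 5.4e-07 by limma), though its dimmer probe set did not pass at either time. Among the ternary complex factors that bind beside it, Elk1 was higher by 0.45 at 2 h and 0.22 at 30 min, and Elk4 by 0.42 and 0.59. Elk3 was higher by 0.72 at 2 h and had a difference of -0.43 at 30 min, while its controls differed by -1.37 between the times and a dimmer Elk3 probe set passed at neither time. Stat3, a further activator of the Fos promoter, was higher by 0.85 at 2 h and 0.50 at 30 min on its brightest probe set. A dimmer Stat3 probe set also passed at both times, with 0.78 at 2 h and 0.48 at 30 min. Ep300, a histone acetyltransferase recruited by CREB, was lower at 2 h with a difference of -0.34 and higher at 30 min by 0.44, and a dimmer Ep300 probe set passed at neither time. Creb1 itself had -0.28 at 2 h (adjusted p = 0.0723 by limma) and 0.23 at 30 min (adjusted p = 0.16 by limma), and is named after its values were seen. These are mRNA levels, and phosphorylation, by which SRF cofactors and CREB are controlled, was not measured.

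Fos mRNA carries AU-rich elements and is degraded through proteins that bind them. A list of 11 mRNA decay factors, which also holds the gene of a stabilizing protein, Elavl1, had 9 measured genes. Of these, 3 were higher and 1 lower at 2 h (median -0.015), beside 9.51% and 15.7% over the array. At 30 min 5 were higher and 0 lower (median 0.26), beside 10.8% and 13.1%. Zfp36, which encodes the destabilizing protein tristetraprolin, read 8.35, 8.09 and 8.49 in depolarized arrays at 2 h, against 6.96, 7.28 and 7.21 in controls. At 30 min it read 10.04, 10.01 and 9.79 in depolarized arrays, against 7.45, 7.56 and 7.77 in controls. It was thus clear of controls at both times, by 1.16 at 2 h (adjusted p = 3.93e-06 by limma) and 2.35 at 30 min (adjusted p = 1.06e-09 by limma), with a response smaller at 2 h by a difference of -1.19 (adjusted p = 0.000111 by limma). Its controls differed by -0.45 between the times (adjusted p = 0.00537 by limma). Its relative Zfp36l2 was higher by 0.73 at 2 h and 0.59 at 30 min on the brightest of 3 probe sets, and the dimmer ones did not pass. Zfp36l1 did not pass at either time, with 0.04 at 2 h and 0.18 at 30 min. Elavl1, which encodes the stabilizing protein HuR, was higher by 0.35 at 2 h and 0.30 at 30 min, while its controls differed by -0.75 between the times. Cnot1, the scaffold of the deadenylase complex, had differences of -0.24 at 2 h and 0.27 at 30 min, both of which passed, and Pum2 passed at 30 min only (0.26, against -0.10 with an adjusted p of 0.365 at 2 h by limma).

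**Figure D3:**
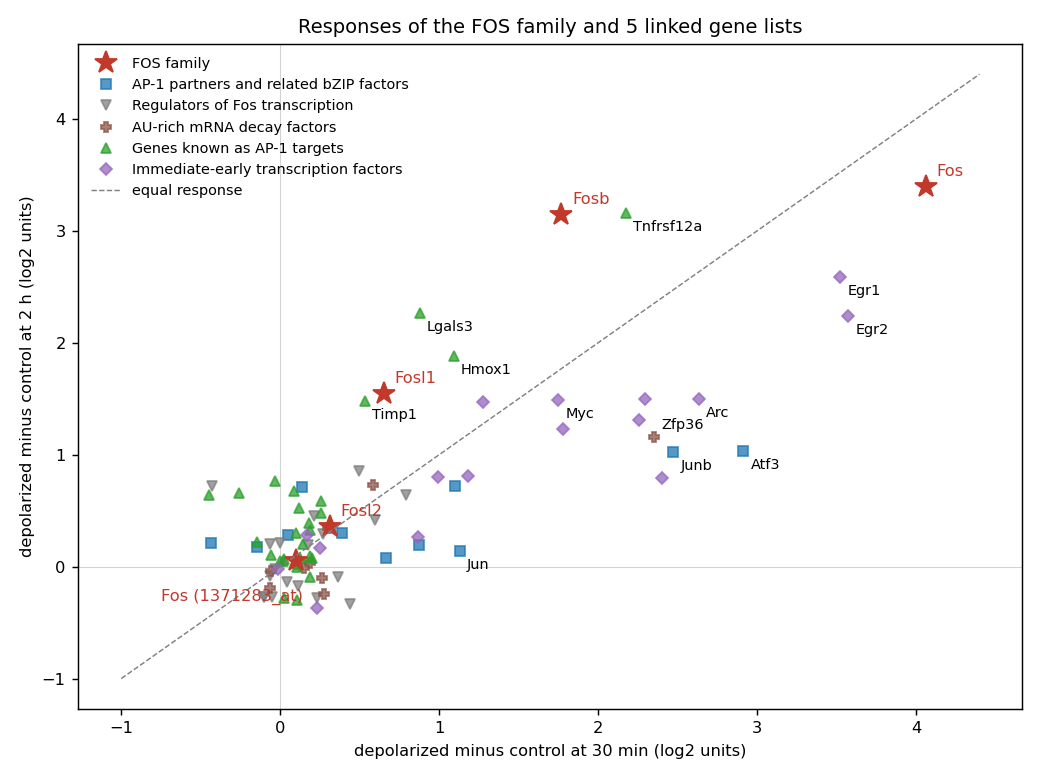
Depolarized minus control difference at 2 h (y axis, log2 units) against that at 30 min (x axis, log2 units) for the FOS family probe sets (stars) and the measured genes of 5 linked lists, each at its brightest probe set. Points above the dashed line of equal response had the larger value at 2 h, as Fosb, Fosl1, Tnfrsf12a, Lgals3 and Hmox1 did, and points below it had the larger value at 30 min, as Fos, Junb, Atf3, Egr1 and Zfp36 did.

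Of 31 genes listed as AP-1 targets from other systems, 28 were measured. At 2 h 14 of them were higher and 2 lower (median 0.26), beside 9.51% higher and 15.7% lower over the array. At 30 min 5 were higher and 2 lower (median 0.12), beside 10.8% higher and 13.1% lower over the array. The response of 9 was larger at 2 h and that of 1 was smaller, beside 6.16% and 6.79% over the array. Direct interaction tests are given for the named genes with a larger response. The list was drawn up with earlier results of these cultures known, so its direction is not independent evidence.

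Tnfrsf12a, the receptor for the cytokine TWEAK, read 10.70, 9.76 and 10.33 in depolarized arrays at 2 h, against 6.91, 7.19 and 7.20 in controls. At 30 min it read 9.51, 9.45 and 9.34 in depolarized arrays, against 7.17, 7.35 and 7.26 in controls. The groups were apart at both times, by 3.16 at 2 h and 2.17 at 30 min, and the response was larger at 2 h by 0.99 (adjusted p = 0.00823 by limma). Lgals3, which encodes galectin-3, was higher by 2.27 at 2 h and 0.88 at 30 min, a response larger at 2 h by 1.39 (adjusted p = 7.57e-05 by limma). Hmox1, the haem-degrading heme oxygenase 1, was higher by 1.89 at 2 h and 1.09 at 30 min, larger at 2 h by 0.80 (adjusted p = 0.00146 by limma). Timp1, an inhibitor of matrix metalloproteinases, was higher by 1.48 at 2 h and 0.53 at 30 min, larger at 2 h by 0.95 (adjusted p = 0.0027 by limma), and its controls differed by -0.74 between the times. Nqo1 and Gclc, antioxidant enzymes that NRF2 also controls, rose by 0.65 and 0.76 at 2 h. At 30 min the Nqo1 difference was -0.26 (adjusted p = 0.0122 by limma) and the Gclc difference -0.03 (adjusted p = 0.82 by limma). Their responses were larger at 2 h, by 0.91 for Nqo1 (adjusted p = 2.27e-05 by limma) and 0.80 for Gclc (adjusted p = 6.69e-05 by limma). Between the times, the Nqo1 controls differed by -0.48 and its depolarized arrays by 0.43. The matrix metalloproteinase genes, classical AP-1 targets in fibroblasts, did not pass: Mmp3, Mmp9, Mmp10, Mmp13 and Mmp14 had differences of 0.02 to 0.11 at 2 h and -0.06 to 0.20 at 30 min over these 5 genes. They are named, like Th, after their values were seen. Th, which encodes the dopamine-synthesis enzyme tyrosine hydroxylase and has an AP-1 site in its promoter, had -0.09 at 2 h (adjusted p = 0.68 by limma) and 0.19 at 30 min (adjusted p = 0.369 by limma).

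Other immediate-early transcription factors and activity genes mostly rose at both times. Of 19 genes listed, 17 were measured. At 2 h 14 were higher and 1 lower (median 0.81), beside 9.51% and 15.7% over the array. At 30 min 15 were higher and 0 lower (median 1.28), beside 10.8% and 13.1%. The response of 8 of the 17 was smaller at 2 h and that of 0 was larger, beside 6.79% and 6.16% over the array. Those of Fosb and Fosl1 were larger. Between controls at 2 h and controls at 30 min, 7 of the 17 were lower and 1 was higher, beside 35.3% in either direction over the array. Egr1, a zinc finger factor, was higher by 2.59 at 2 h and 3.52 at 30 min (response difference -0.93, adjusted p = 0.0282 by limma). Its controls differed by -0.95 between the times (adjusted p = 0.000965 by limma) and its depolarized arrays by -1.88. Klf6, a Krüppel-like factor, was higher by 0.79 at 2 h and 2.40 at 30 min (response difference -1.61, adjusted p = 1.02e-05 by limma). Ier2 and Ier3 were higher by 1.31 and 1.50 at 2 h and by 2.26 and 2.30 at 30 min. Their controls differed by -0.48 and -0.41 between the times. The orphan nuclear receptors Nr4a1 and Nr4a3 were higher by 1.23 and 0.81 at 2 h and by 1.78 and 1.18 at 30 min, and their response differences did not pass (adjusted p = 0.0596 and 0.0647 by limma).

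Of 56 measured markers of neuronal, glial, progenitor, microglial and vascular or connective tissue cells, 6 were higher and 4 lower at 2 h, beside 9.51% and 15.7% over the array, and 4 were higher and 1 lower at 30 min, beside 10.8% and 13.1%. The markers that passed are named here after their values were seen. Nefm, a neurofilament gene, was higher by 0.39 at 2 h and 0.65 at 30 min, and Nefl by 0.43 at 2 h. Of the 10 markers of dopaminergic neurons, Foxa2 was higher by 0.37 at 2 h and 0.29 at 30 min, Nr4a2 by 0.26 and 0.87, and the vesicular transporter gene Slc18a2 by 0.31 at 2 h, while Aldh1a1 had a difference of -0.59 at 2 h (adjusted p = 0.0356 by limma). Pdgfra, of the oligodendrocyte lineage, had -0.75 at 2 h and -0.58 at 30 min. Of the progenitor markers, Hes5 had -0.75, Pax6 -0.47 and Sox2 0.31 at 2 h, and the microglial marker Cd68 was higher by 0.38 at 30 min. The part of these differences in the FOS family responses was not tested. The 9 neuronal markers had a mean level per array of 11.32 to 11.41 in depolarized and 11.34 to 11.41 in control arrays at 2 h, and of 10.48 to 10.60 in depolarized and 10.30 to 10.51 in control arrays at 30 min. None of the 7 astrocyte markers passed at either time in the limma fit. Th, whose difference did not pass at either time, averaged 7.87 ± 0.32 in depolarized and 7.96 ± 0.17 in control arrays at 2 h, and 7.71 ± 0.14 in depolarized and 7.53 ± 0.12 in control arrays at 30 min (SD, n = 3 each). Without detection calls, a low value cannot be told apart from background, so whether a marker was absent was not tested.

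The genes whose profiles were most like each member were found by Pearson correlation over the 12 arrays among 675 probe sets whose highest and lowest group means differed by at least 1 log2 unit. The 12 arrays fall into 4 groups, so these coefficients mainly describe the group means and no p is given. Genes chosen this way share the member's course by construction, and their differences are given as a description. The 5 nearest genes to Fos were Cyp51 (r = 0.97), an enzyme of cholesterol synthesis, the growth regulator Myc (0.97), the histone gene Hist4h4 (0.97), the growth factor gene Areg (0.97) and Homer1 by 1370997_at (0.97). Their differences were 0.90 to 1.49 at 2 h and 1.16 to 1.95 at 30 min, all smaller than those of Fos.

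The 5 nearest to Fosb were Hmox1 (0.99), the linker histone gene H1f2 (0.98), Homer1 by another probe set, 1370454_at (0.97), Tnfrsf12a (0.97) and Srxn1 (0.95). Homer1, a postsynaptic scaffold gene with an activity-induced short form, thus lay near Fos by 1 probe set and near Fosb by another. By 1370454_at it was higher by 2.20 at 2 h and 1.32 at 30 min, and by 1370997_at by 1.24 at 2 h and 1.95 at 30 min. The files do not say which splice forms these probe sets detect. H1f2 was higher by 2.14 at 2 h and 0.73 at 30 min.

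The 5 nearest to Fosl1 were Lgals3 (0.97), the nuclear lamina gene Lmna (0.96), Osgin1 (0.96), Srxn1 (0.96) and the focal adhesion gene Tes (0.96). Srxn1, which encodes the antioxidant enzyme sulfiredoxin and was near both Fosb and Fosl1, was higher by 2.95 at 2 h and by 1.10 at 30 min. The 5 nearest to Fosl2 were the ephrin receptor gene Epha2 (0.94), Gadd45b (0.93), Pvr (0.93), Ier5l (0.92) and the clock-linked repressor gene Bhlhe40 (0.91). Their differences were 0.67 to 1.81 at 2 h and 0.88 to 1.75 at 30 min. Fosl2 itself did not reach the minimum spread of 1 log2 unit, so genes with differences as small as its own were not eligible.

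**Figure D4:**
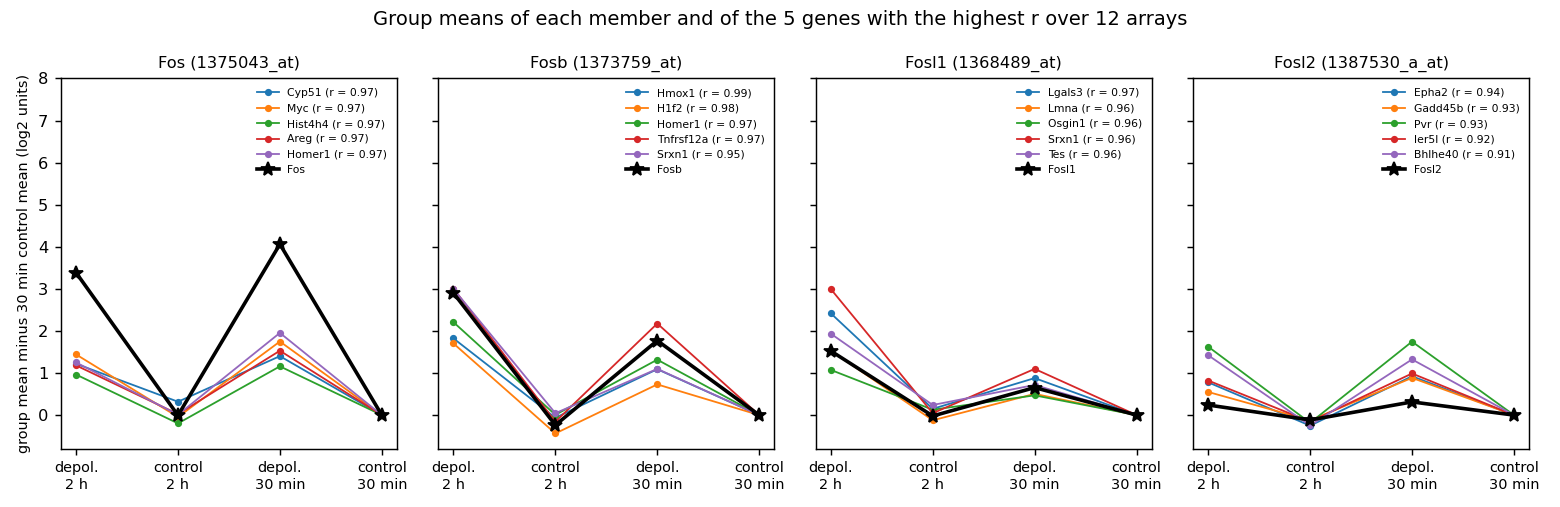
Group means minus the mean of the 30 min controls (y axis, log2 units) for each member (black) and the 5 genes with the highest correlation over 12 arrays (colours), with the groups along the x axis. The genes near Fosb and Fosl1 were highest in the depolarized arrays at 2 h, and Fos itself stood at 4.06 in the depolarized arrays at 30 min, above its 5 neighbours.

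Of the 18 different genes near a member, 14 had a RefSeq promoter window, of which 1 held TGANTCA, 2 held TGACGTCA, 5 held TGACG and 0 held the serum response element. The windows of Gadd45b, Lmna, Osgin1 and Tnfrsf12a lie inside the annotated gene, like that of Fosb, and held none of the 4 motifs. The stretch around the only TGANTCA match, in Srxn1, is printed because that gene was near both Fosb and Fosl1, with capitals for TGANTCA and for CGTCA.
Srxn1, chr3:161064723-161064782, plus strand: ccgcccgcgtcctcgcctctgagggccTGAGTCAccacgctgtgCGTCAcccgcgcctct

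The AP-1 match began 62 bases and the other match 45 bases before the annotated start. With 1 match in 14 windows against 6.34% of all rat windows, nothing about AP-1 binding near these genes follows from the letters alone.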

How the data were processed

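Expression was measured on 12 single-colour Affymetrix arrays. The deposited table gives log2 RMA values that the authors computed, per the submitters' processing notes, without a version; which arrays were normalized together is not given in the sources used here. It has 15923 probe sets, from which 57 controls of the array were removed, leaving 15866. By the platform annotation, of unknown age, 12783 of them have a single gene symbol, 312 have several and 2771 have none, and genes are named only from single symbols.

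Group means of the 4 groups were modelled with limma 3.58.1 in R 4.3.3 (lmFit, contrasts and eBayes; 8 residual degrees of freedom; two-sided), without further normalization, with Benjamini-Hochberg adjustment over 15866 probe sets and a threshold of 0.05. The model was tested on simulated data. Tables and plots used Python 3.11.15, pandas 2.3.3 and matplotlib 3.10.9. Genes of a list stand at the probe set with the highest mean. Named genes are the members, the 5 most correlated genes of each called member probe set, up to 6 genes per list with the smallest p, and Jun, Junb, Jund and Atf3; where the text names a gene outside this rule, it was picked with its values known. Alternatives were other arrays in the fit, median centring, quantile normalization, filters on dim probe sets, weights per array, a robust trended prior, a threshold of 0.01, the replicate block, controls of the other collection time, the probe set with the lowest p, and each array left out. The members and lists were chosen with earlier results of these data known.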

Additional observations from a re-analysis of the deposited data

Results flagged for a closer look

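The responses of 3 FOS family probe sets differed between the collection times by a direct test of the difference, the interaction term of the limma fit over all 12 arrays (response at 2 h minus response at 30 min). For Fosb the difference was 1.37 log2 units (adjusted p = 6.72e-05), and all 3 depolarized arrays at 2 h were above all 3 at 30 min. For Fosl1 it was 0.89 (adjusted p = 0.0103), with the same separation of the depolarized arrays. For Fos 1375043_at it was -0.67 (adjusted p = 0.00104), and all 3 depolarized arrays at 2 h were below all 3 at 30 min. The collection times also differed in neuronal marker levels of the controls, and the part of this in the values was not tested.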

How the results depend on the processing

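Of the 25 results for the members, 14 passed, and 13 of these kept their direction and call in every alternative run other than the threshold of 0.01. None of the 14 turned direction in any alternative run. At 0.01 the calls lost were Fosl2 at 30 min (0.31, adjusted p = 0.0121) and the Fosl1 response difference (0.89, adjusted p = 0.0103). With each array left out in turn, the Fosl2 difference at 30 min ran from 0.28 to 0.36, and its call was lost without replicate 3 of the 30 min controls (adjusted p = 0.053). With the controls of the other collection time, Fos 1371283_at passed at 30 min (0.18, adjusted p = 0.0237) and was -0.026 at 2 h. The control difference of Fos 1375043_at, which did not pass, was 0.067 after quantile normalization and 0.0086 with array weights, and that of Fosl1 was 0.034 after quantile normalization. With 1 array left out, values that did not pass ranged from -0.056 to 0.035 (Fos 1375043_at, controls), -0.13 to 0.14 (Fosl1, controls), -0.37 to -0.14 (Fosb, controls, passing without replicate 5 of the 2 h controls, adjusted p = 0.0302), -0.16 to 0.022 (Fosl2, depolarized) and -0.040 to 0.14 (Fosl2, response difference). In counts over the array, leaving out the dimmest 50% gave 970 higher at 2 h, against 1509. It gave 1542 lower in controls and 2074 lower in depolarized cultures, against 2730 and 3461. That filter also took the dim probe sets out of the total tested, which was 15866 in the main fit. The smaller counts therefore do not mean that a smaller share passed. The threshold of 0.01 gave 934 higher and 1476 lower at 2 h, 544 and 541 for the response difference, 1574 lower in controls and 2151 lower in depolarized cultures. Controls of the other collection time gave 4359 higher and 3901 lower at 30 min and 2768 higher at 2 h. After quantile normalization 1 AP-1 target was lower at 2 h, against 2. Same-numbered arrays were not treated as pairs. Their deviations from the group means correlated at -0.32 to 0.24, and those of differently numbered arrays at -0.42 to 0.35. With 3 arrays per group these values cannot decide whether same-numbered arrays are pairs. With the replicate block no member call changed (Fosl2 at 30 min, adjusted p = 0.0136 by limma). In that fit 1607 probe sets were higher at 30 min, against 1720. A fit of only the arrays compared gives no value for the response difference. Without detection calls, signal over background is unknown.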
